A study of Mus musculus with 51 samples.

Results

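The genes described here encode the classical axon guidance ligands and receptors. They were chosen by gene symbol alone, as the rows of the count table for the class 3 to 7 semaphorins and their plexin and neuropilin receptors, the ephrins and Eph receptors, the Slits and Robos, and the netrins with Dcc and the Unc5 receptors. The rule took 69 of the 24564 genes in the table, 35 of them ligands and 34 receptors. There were 20 semaphorins, 9 plexins, 2 neuropilins, 8 ephrins, 14 Eph receptors, 3 Slits, 4 Robos, 4 netrins and 5 netrin receptors.

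RNA was measured with Smart-seq2, a full-length method for small RNA inputs, in neurons isolated from adult mouse midbrain by fluorescence-activated cell sorting (FACS). The study compared neurons with and without a working Polycomb repressive complex 2 (PRC2), the enzyme complex that methylates lysine 27 of histone H3 and keeps developmental genes silent. Midbrain dopaminergic neurons (mDA) came from the strain DatCreEed and serotonergic neurons (5HT) from the strain SertCreEed, in which Cre is driven from the dopamine and the serotonin transporter gene. Each library is 1 animal, and the labels give its genotype as wt or PRC2 mutant, with no statement of which Eed alleles or whether Cre was carried by the wt animals. The mDA groups held 9 wt and 10 mutant animals at 4 months of age and 8 wt and 8 mutant animals at 8 months. Each 5HT group held 4 animals, wt and mutant at 4 and at 8 months. Eed, the PRC2 subunit named in the strain, was not lower in any labelled mutant group, with medians of 14.2 CPM (counts scaled to a common library total) in wt and 21.8 CPM in mutant mDA at 8 months, but a count over the whole gene checks nothing where only some exons are removed. "Mutant" therefore stands for the label throughout.

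Axon guidance molecules steer growing axons by attraction or repulsion and in the adult remain in use at synapses. Netrin-1 attracts axons through Dcc and repels them through Unc5 receptors, Slits repel through Robos, class 3 semaphorins act through neuropilins paired with plexins, and most other semaphorins bind plexins directly. Ephrins and Eph receptors signal in both directions between touching cells. In the developing midbrain these systems guide dopaminergic axons toward the striatum and cortex.

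Levels are CPM on library sizes scaled by the TMM method. Fold changes and SEs were fitted with edgeR (quasi-likelihood), and p-values were adjusted by the Benjamini-Hochberg method across every gene in the fit. A gene was called at an adjusted p under 0.05. Library totals ran from 1644463 to 12250652 counts, so that a floor of 3 counts stood for 0.238 to 1.86 CPM. Summed levels of 5 serotonergic markers (Tph2, Slc6a4, Fev, Gata3 and Slc22a3) were 6.56 to 55.0 CPM in mDA libraries and 1077 to 7233 CPM in 5HT libraries. The 6 dopaminergic markers (Th, Slc6a3, Slc18a2, Ddc, Nr4a2 and Pitx3), of which Slc18a2 and Ddc are also used by serotonergic neurons, summed to 3001 to 10124 CPM in mDA and 1514 to 4137 CPM in 5HT libraries.

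Several libraries stood apart. The mDA mutants D161, D170 and D176 of 8 months, all male, had summed levels of 8 endothelial markers of 858, 300 and 677 CPM, against 6.01 to 40.8 CPM in the other 13 libraries of that age. Their 6 mural cell markers summed to 310, 174 and 390 CPM, against 2.48 to 27.4 CPM. At 4 months the 6 female mDA mutants had totals of 1654679 to 3017639 counts and the 4 male mutants 4094713 to 4587367. At that age sequencing set1 held wt males and mutant females only and set3 the reverse, so genotype and sex cannot be told apart within those sets.

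In wt neurons most members were expressed. Averaged over the wt animals, 12 of 69 members reached 100 CPM or more in mDA and 7 in 5HT, 32 and 35 lay between 10 and 100 CPM, 20 and 22 between 1 and 10 CPM, and 5 in each cell type lay under 1 CPM. Per kilobase of exon, Epha10, an Eph receptor whose kinase domain is thought to be inactive, was first in both, at 133 ± 26.8 CPM per kb in mDA (SD, n = 17) and 66.0 ± 17.8 in 5HT (SD, n = 8). In mDA it was followed by the transmembrane semaphorin genes Sema4g (45.5 ± 9.61) and Sema6d (41.9 ± 7.05), which differed by less than their SD. Plxna1 (25.6 ± 4.24), a plexin that pairs with neuropilins, Ntn1 (23.8 ± 3.98), encoding netrin-1, Efnb3 (23.1 ± 8.63), a transmembrane ephrin, Plxna3 (22.9 ± 4.19) and Epha5 (20.8 ± 2.15), a receptor for A-type ephrins, came next and overlapped. In 5HT the order after Epha10 was Sema4a (32.8 ± 8.2 CPM per kb), Sema4g (31.0 ± 6.89), Plxna3 (30.2 ± 3.67), Ephb6 (23.99 ± 3.42), Sema4f (18.3 ± 3.56), Plxnb2 (15.2 ± 3.06) and Efnb3 (14.4 ± 3.74). Sema4a, Sema4g and Plxna3 lay within 1 SD of each other. The exon length used for Epha10 was 2544 bases. Without division by length, Epha10 stayed first in mDA, at 338 ± 68.1 CPM (SD, n = 17). In 5HT Plxna3 then lay above Epha10, at 210 ± 25.5 against 168 ± 45.3 CPM (SD, n = 8).

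The wt neurons of both kinds were compared to see how their guidance genes differ before any loss of PRC2. Of 64 members tested, 21 were higher in mDA and 9 higher in 5HT. Over all 16178 genes tested, 11.3% were higher in mDA and 10.4% higher in 5HT. The members' median log2 fold change was 0.26 against 0.03 for all genes. Cell type, mouse strain and sequencing run cannot be told apart in this comparison.

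The netrin system differed in ligand and receptors. Ntn1 ranged from 89.3 CPM over a median of 144 to 185 CPM in 17 mDA libraries and from 0.624 over 8.57 to 21.8 CPM in 8 5HT libraries, with no overlap (log2 fold change 4.31, SE 0.26, edgeR adjusted p = 2.86e-15). Its receptor gene Dcc ranged from 111 to 185.8 CPM in mDA (median 146.8) and from 33.4 to 86.3 CPM in 5HT (median 58.5), again without overlap (log2 fold change 1.46, edgeR adjusted p = 8.17e-11). Unc5c, which encodes a repulsive netrin receptor, was higher too (0.91, edgeR adjusted p = 2.16e-05). Unc5d, of the same receptor family, was lower in mDA (-0.87, edgeR adjusted p = 2.17e-05), at 22.6 to 72.7 CPM against 71.0 to 112 CPM.

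Among the Eph receptors Epha4 (log2 fold change 3.92, SE 0.31), which binds ephrins of both classes, Epha5 (1.82, SE 0.13) and Epha10 (1.002, SE 0.14) were higher in mDA. Epha4 lay at 63.5 to 179 CPM in mDA and 0.208 to 23.5 CPM in 5HT. The A-type ligand gene Efna5 (0.91) and the B-type ligand gene Efnb2 (2.05) were also higher in mDA, while Efnb3 was not called (0.55, edgeR adjusted p = 0.0593). Ephb6, a kinase-inactive receptor gene, and Epha8 were higher in 5HT (-0.54 and -1.16). Epha8 is 1 of 5 members whose call was lost without 1 library (edgeR adjusted p = 0.0531 without the 5HT wt animal S383).

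The semaphorin system was divided between the cell types. Sema6d (1.82), Sema5b (2.08), Sema3f (1.02), the receptor genes Nrp2 (1.48), Plxna1 (1.03), Plxna4 (0.95) and Plxnc1 (0.81), and Sema4g (0.59) were higher in mDA. Plxnd1, a plexin gene best known from blood vessels, was higher in 5HT, at 18.5 to 57.2 CPM against 2.09 to 11.1 CPM in mDA (log2 fold change -3.13, SE 0.25, edgeR adjusted p = 4.29e-12). Summed endothelial markers were also higher in the wt 5HT libraries, 25.5 to 74.1 CPM against 6.01 to 40.8 CPM, with 3 of 8 markers called. Their part in the Plxnd1 difference was not tested. Sema6a (-1.63), Sema4a (-0.80), Sema4d (-0.68) and Plxna3 (-0.41) were higher in 5HT as well. Of the Slit and Robo genes, Robo1 (0.71), Robo2 (0.87) and Slit1 (0.42) were higher in mDA and Slit2 higher in 5HT (-0.88, edgeR adjusted p = 6.56e-06). The calls of Plxna3, Sema4d, Sema6b and Slit1 were the others lost without a single library, at edgeR adjusted p of 0.0613, 0.0501, 0.0586 and up to 0.055. These were 5HT animals, S385 for Plxna3, S381 for Sema4d and S367 for Sema6b, and for Slit1 S367, S382, S383 or the mDA animal C45.

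**Figure D1:**
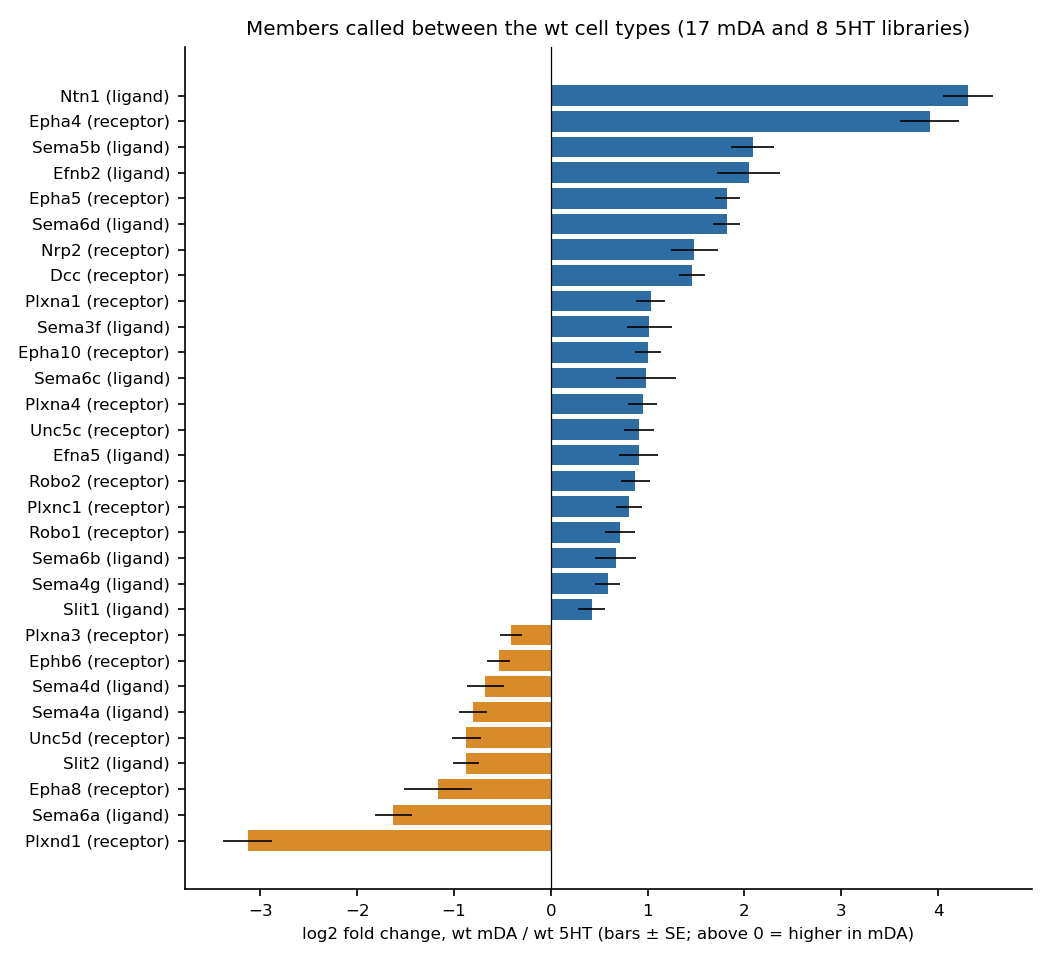
Log2 fold change (x axis, bars with SE) of wt mDA over wt 5HT neurons for the 30 members called. The 21 blue bars are higher in mDA, led by Ntn1 (4.31) and Epha4 (3.92), and the 9 orange bars are higher in 5HT, led by Plxnd1 (-3.13).

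The central comparison, mutant against wt mDA neurons at 8 months, called 6 of 65 tested members. Sema4g, Unc5c, Epha10 and Epha5 fell and Sema3c and Sema4d rose. At this age sequencing set3 held only the wt animals D833 and C250, so with the set term the fold changes rest on set1 and set2. Leaving out D833 or C250 therefore tests these calls little. In set1 most wt animals were male and most mutants female, and in set2 all wt animals were male. Ranges and medians below are of all 8 wt animals. Over all 15425 genes tested, 2.44% were higher and 1.88% lower, and the members' shares were 2 and 4 of 65. The members' median log2 fold change was 0.08 against 0.02 for all genes. In 0 of 65 members did the values of the 8 mutants lie wholly outside those of the 8 wt animals, which 1.28% of all genes tested did.

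Sema4g encodes a transmembrane semaphorin and lies on chromosome 19 (44989101 to 45003397, GRCm38). Its level was 164 to 262 CPM in wt (median 235) and 90.9 to 169 CPM in mutants (median 121), a log2 fold change of -0.89 (SE 0.16, edgeR adjusted p = 0.000137). The highest mutant, D282, lay just above the 2 lowest wt animals, D147 and D107, and the other 7 mutants lay below all wt animals. Unc5c, on chromosome 3 (141465216 to 141834924), went from 55.6 to 109 CPM in wt (median 81.3) to 35.7 to 68.2 CPM in mutants (median 46.1). Its log2 fold change was -0.79 (SE 0.18, edgeR adjusted p = 0.00399), and the mutant D161 lay above the lowest wt animal, D107, while the other 7 mutants, at up to 50.7 CPM, lay below all wt animals. Unc5c shares 1.22% of its exon length with an antisense gene model. Both genes were called without each single library.

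Both called Eph receptor genes fell by less. Epha10, on chromosome 4 (124880899 to 124917800), lay at 270 to 472 CPM in wt (median 383.2) and 224 to 335 CPM in mutants (median 245), with a log2 fold change of -0.59 (SE 0.15, edgeR adjusted p = 0.0172). The groups overlapped, with the mutants C42 and D276 within the wt range. The call was lost without the mutant D282 (-0.52, edgeR adjusted p = 0.0534) and without a term for sex (-0.46, adjusted p = 0.165). Epha5, on chromosome 5 (84054761 to 84417382), lay at 163 to 229 CPM in wt (median 211) and 120 to 197 CPM in mutants (median 145), with a log2 fold change of -0.45 (SE 0.13, edgeR adjusted p = 0.0271). The mutant D170 lay within the wt range and the other 7 below it. Leaving out any of the mutants C42, D265 or D282 or the wt animals C45, C51 or D147 ended that call, with adjusted p up to 0.0884, as did keeping genes of low count (-0.44, edgeR adjusted p = 0.0552).

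All 4 members that fell were among the 21 with higher levels in mDA in the comparison of wt cell types. The wt mDA animals of the mutant test are also in that comparison, so a high level in them favours both calls. No share for all genes that fell is given, so the overlap shows nothing particular to the members. In the mutant test at the same age, 5 of the 6 dopaminergic markers were lower in mutants. Their sum was 3001 to 3934 CPM against 5054 to 9372 CPM in wt. All 3 GABA neuron markers (Gad1, Gad2 and Slc32a1) were higher, their sum being 387 to 636 CPM against 109 to 268.9 CPM. In sorted bulk samples fewer cells of a type and less RNA per cell cannot be told apart, and the part of these marker changes in the members' changes was not tested. Ntn1 and Epha4, the members with the largest wt excess in mDA, had log2 fold changes of -0.0037 (SE 0.15) and -0.18 (SE 0.19) and were not called. Dcc (0.19, SE 0.13) and Sema6d (0.10, SE 0.13) were not called either.

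Sema4d and Sema3c rose. Sema4d, on chromosome 13 (51685529 to 51793747), encodes a transmembrane semaphorin that signals through plexin B1. It lay at 15.3 to 40.6 CPM in wt (median 25.2) and 35.3 to 59.8 CPM in mutants (median 45.1), with a log2 fold change of 0.81 (SE 0.23, edgeR adjusted p = 0.0273). The wt animals D107 and D147 lay above the lowest mutant, D265, and the other 6 wt animals below all mutants. The call was lost without the mutant D276 or D282 or the wt animal C47 or C49, with adjusted p up to 0.0731. It was also lost without a term for sex (0.66, edgeR adjusted p = 0.143) and in sequencing set1 alone (0.87, edgeR adjusted p = 0.0718).

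Sema3c encodes a secreted semaphorin that signals through neuropilins and lies on chromosome 5 (17574281 to 17730268). Of the 6 calls it had the largest log2 fold change and the largest SE. It was 0 to 4.92 CPM in wt (median 0.667) and 0 to 29.4 CPM in mutants (median 8.36), with a log2 fold change of 3.89 (SE 1.06, edgeR adjusted p = 0.023). The 3 highest mutants were D161 (29.4 CPM), D176 (24.8) and D170 (18.1), the libraries with high endothelial and mural markers. The other 5 mutants lay at 8.69, 8.02, 5.72, 1.68 and 0 CPM, so that 2 of them were within the wt range. In this comparison 2 of 8 endothelial and 0 of 6 mural markers were called higher, and each marker of both lists had counts in each group. Without those 3 libraries Sema3c was not called (2.95, edgeR adjusted p = 0.143), whereas Sema4g (-1.11), Unc5c (-0.89), Epha10 (-0.76), Epha5 (-0.52) and Sema4d (1.10) were. Leaving out the mutant D276 or D282 or the wt animal D107 or D147 also ended the call of Sema3c, with adjusted p up to 0.0683.

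Robo4, the Robo of blood vessel cells, was also high in D161 and D176, at 30.9 and 30.8 CPM. It was 1.65 CPM in D170 and 0 to 3.13 CPM in the other 13 mDA libraries of 8 months, too low for the test in mDA neurons. The part of vascular RNA in the Sema3c difference was not tested.

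**Figure D2:**
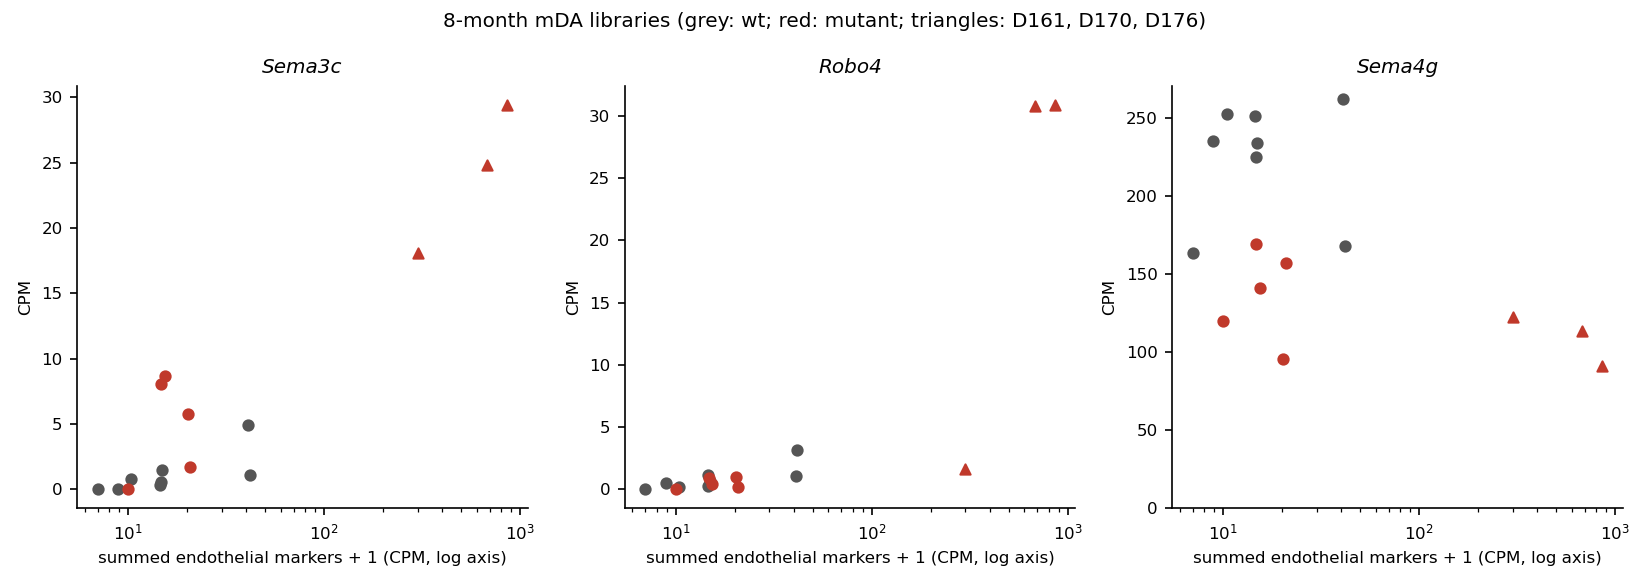
Level of Sema3c, Robo4 and Sema4g (y axes, CPM) against the summed CPM of 8 endothelial markers plus 1 (x axis, log scale) in the 16 mDA libraries of 8 months. The 3 triangles, D161, D170 and D176, lie at 300 to 858 CPM of endothelial markers and have the highest Sema3c levels, while Sema4g is low in most mutants whether or not their endothelial markers are high.

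**Figure D3:**
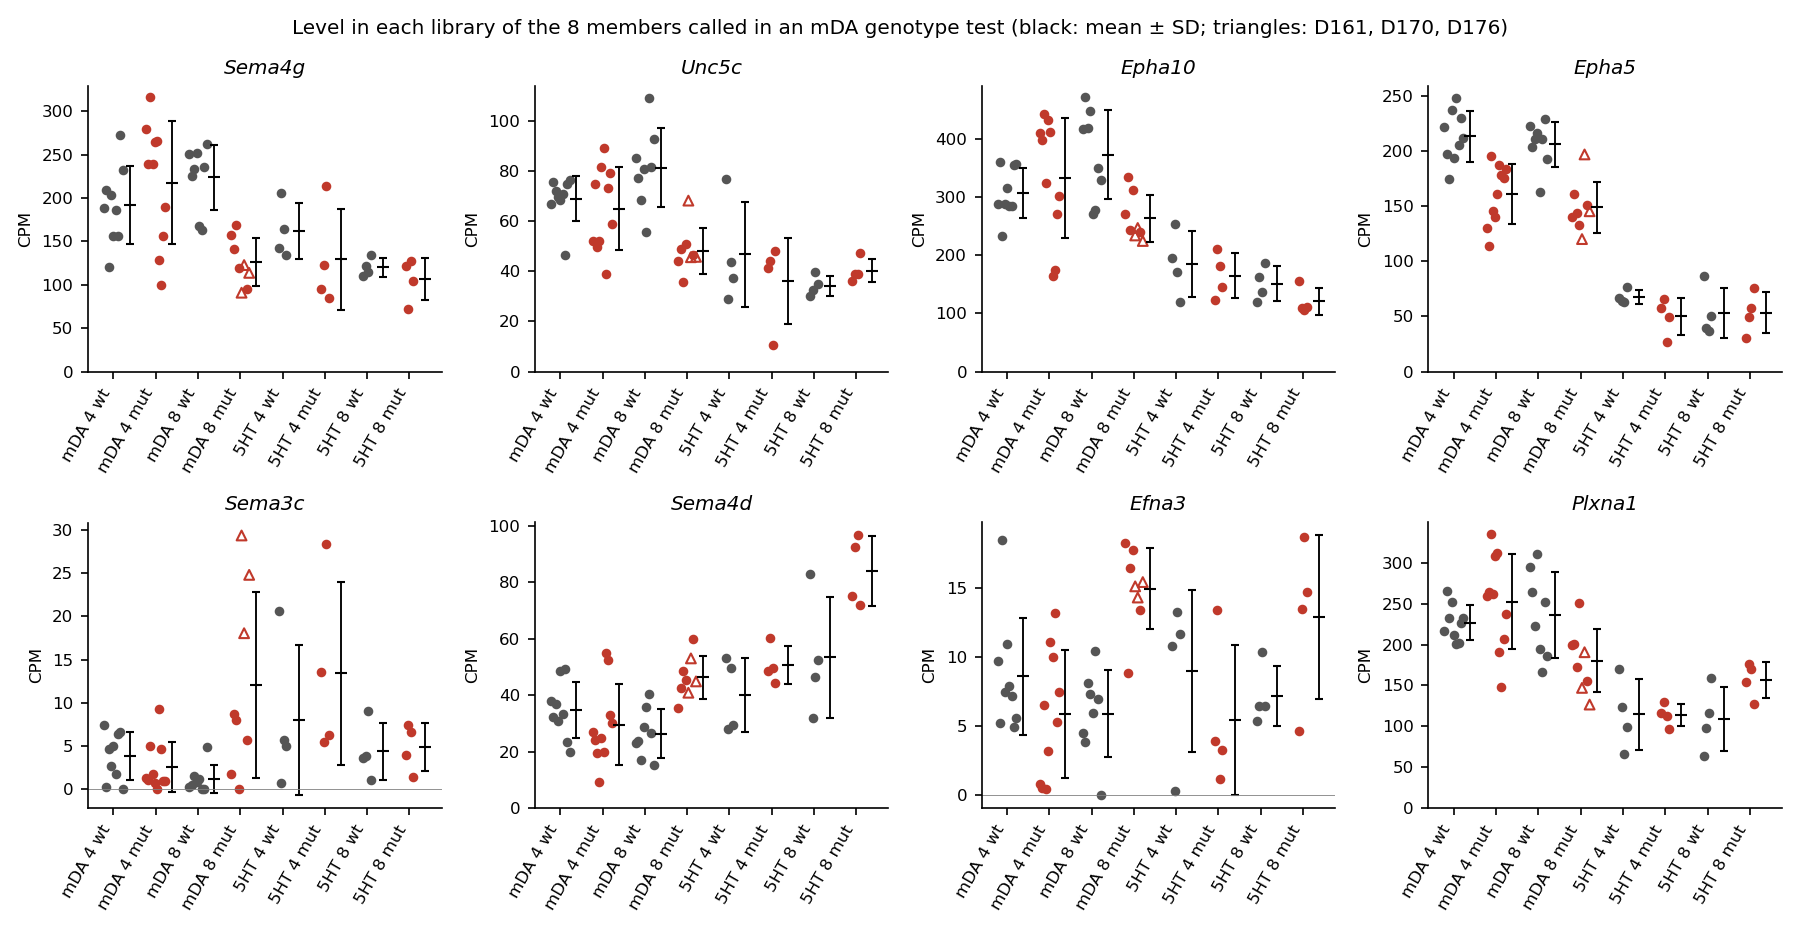
Level in CPM (y axes) of the 8 members called in an mDA genotype test, in each of the 51 libraries by group (x axes, age in months), with mean and SD in black. In mDA neurons of 8 months the mutants of Sema4g, Unc5c, Epha10 and Epha5 lie mostly below wt and those of Sema4d mostly above, while Sema3c is spread from 0 to 29.4 CPM among the mutants.

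The promoters of the 2 decreases with the smallest p and of Sema3c are shown because PRC2 is known to act at promoters rich in CG dinucleotides. Each is the 250 bases before the annotated start in RefSeq (GRCm38.p6), 5′ to 3′ on the gene's strand, with every CG in capitals.
Sema4g, chr19:44989094-44989343, plus strand: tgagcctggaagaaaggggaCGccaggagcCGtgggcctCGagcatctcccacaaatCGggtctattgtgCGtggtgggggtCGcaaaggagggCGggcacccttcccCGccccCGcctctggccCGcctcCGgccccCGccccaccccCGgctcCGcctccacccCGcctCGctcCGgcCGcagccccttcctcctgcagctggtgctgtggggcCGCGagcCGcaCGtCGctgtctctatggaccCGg
Unc5c, chr3:141465314-141465563, plus strand: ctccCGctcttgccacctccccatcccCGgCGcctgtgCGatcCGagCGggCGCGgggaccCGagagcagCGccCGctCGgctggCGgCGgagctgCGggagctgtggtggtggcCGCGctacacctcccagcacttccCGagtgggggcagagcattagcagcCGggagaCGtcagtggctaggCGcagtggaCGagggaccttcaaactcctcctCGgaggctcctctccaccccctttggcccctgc
Sema3c, chr5:17574566-17574815, plus strand: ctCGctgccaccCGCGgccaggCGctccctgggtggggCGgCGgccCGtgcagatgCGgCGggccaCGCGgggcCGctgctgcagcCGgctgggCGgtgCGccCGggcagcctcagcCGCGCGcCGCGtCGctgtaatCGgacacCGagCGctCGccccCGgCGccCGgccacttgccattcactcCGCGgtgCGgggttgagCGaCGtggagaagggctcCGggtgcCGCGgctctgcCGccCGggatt
These windows hold 24 CG in Sema4g, 23 in Unc5c and 39 in Sema3c. Epha5 had 20 and Epha10 had 17. The table holds 59 of the 69 members. Taking each gene's window with the most CG, the members' median was 17 against 6 over the 27025 genes of the table. Of members 59.3% had 15 or more, against 29.6% of genes. The 27025 genes were not matched to the members in expression or gene type. CG-rich windows were found in members that fell and in Sema3c, which rose. Sema4d, which also rose, had 2, 2 and 1 CG in its 3 windows. The 3 windows of Sema4d are not shown. They lie inside its gene model given above, the one nearest its start ending at 51756933 on the minus strand. That model starts at 51793747, so the bases before its start are not among the windows of Sema4d. The windows shown for Unc5c and Sema3c also lie inside the gene models given above, and that of Sema4g begins just before its model.

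The other members known for the guidance of these axons were not called at 8 months. Slit1 (0.15), Slit2 (-0.41) and Slit3 (0.36), and Robo1 (0.18) and Robo2 (0.05), were among them. The neuropilin genes Nrp1 (0.52, adjusted p = 0.33 from edgeR) and Nrp2 (-0.31), the semaphorin genes Sema3a (-0.27), Sema3f (0.42) and Sema7a (0.31), and the receptor genes Plxnc1 (0.08) and Plxna4 (0.20) were not called either. The same held for Ephb1 (0.67, SE 0.37), Efna5 (0.25), Efnb2 (-0.59, SE 0.33) and Efnb3 (0.23). The values of Ephb1, Efnb2 and Nrp1 (SE 0.28) were as large as some called ones, with larger SEs. Sema3a was near the floor, with a median of 0.875 CPM in mutants and 1.65 in wt. By family, edgeR called 2 of 20 semaphorins higher and 1 lower, and 2 of 14 Eph receptors and 1 of 5 netrin receptors lower. It called none of the 9 plexins, 2 neuropilins, 3 tested Robos, 3 Slits, 7 tested ephrins and 2 tested netrins. DESeq2 also called Efna3 higher (1.40, DESeq2 adjusted p = 0.0244) and Plxna1 lower (-0.42, DESeq2 adjusted p = 0.0377). Of all 15425 genes tested, DESeq2 called 580 higher and 480 lower. Ntn4, Ntn5, Efna4 and Robo4 were too low to be tested in mDA neurons.

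**Figure D4:**
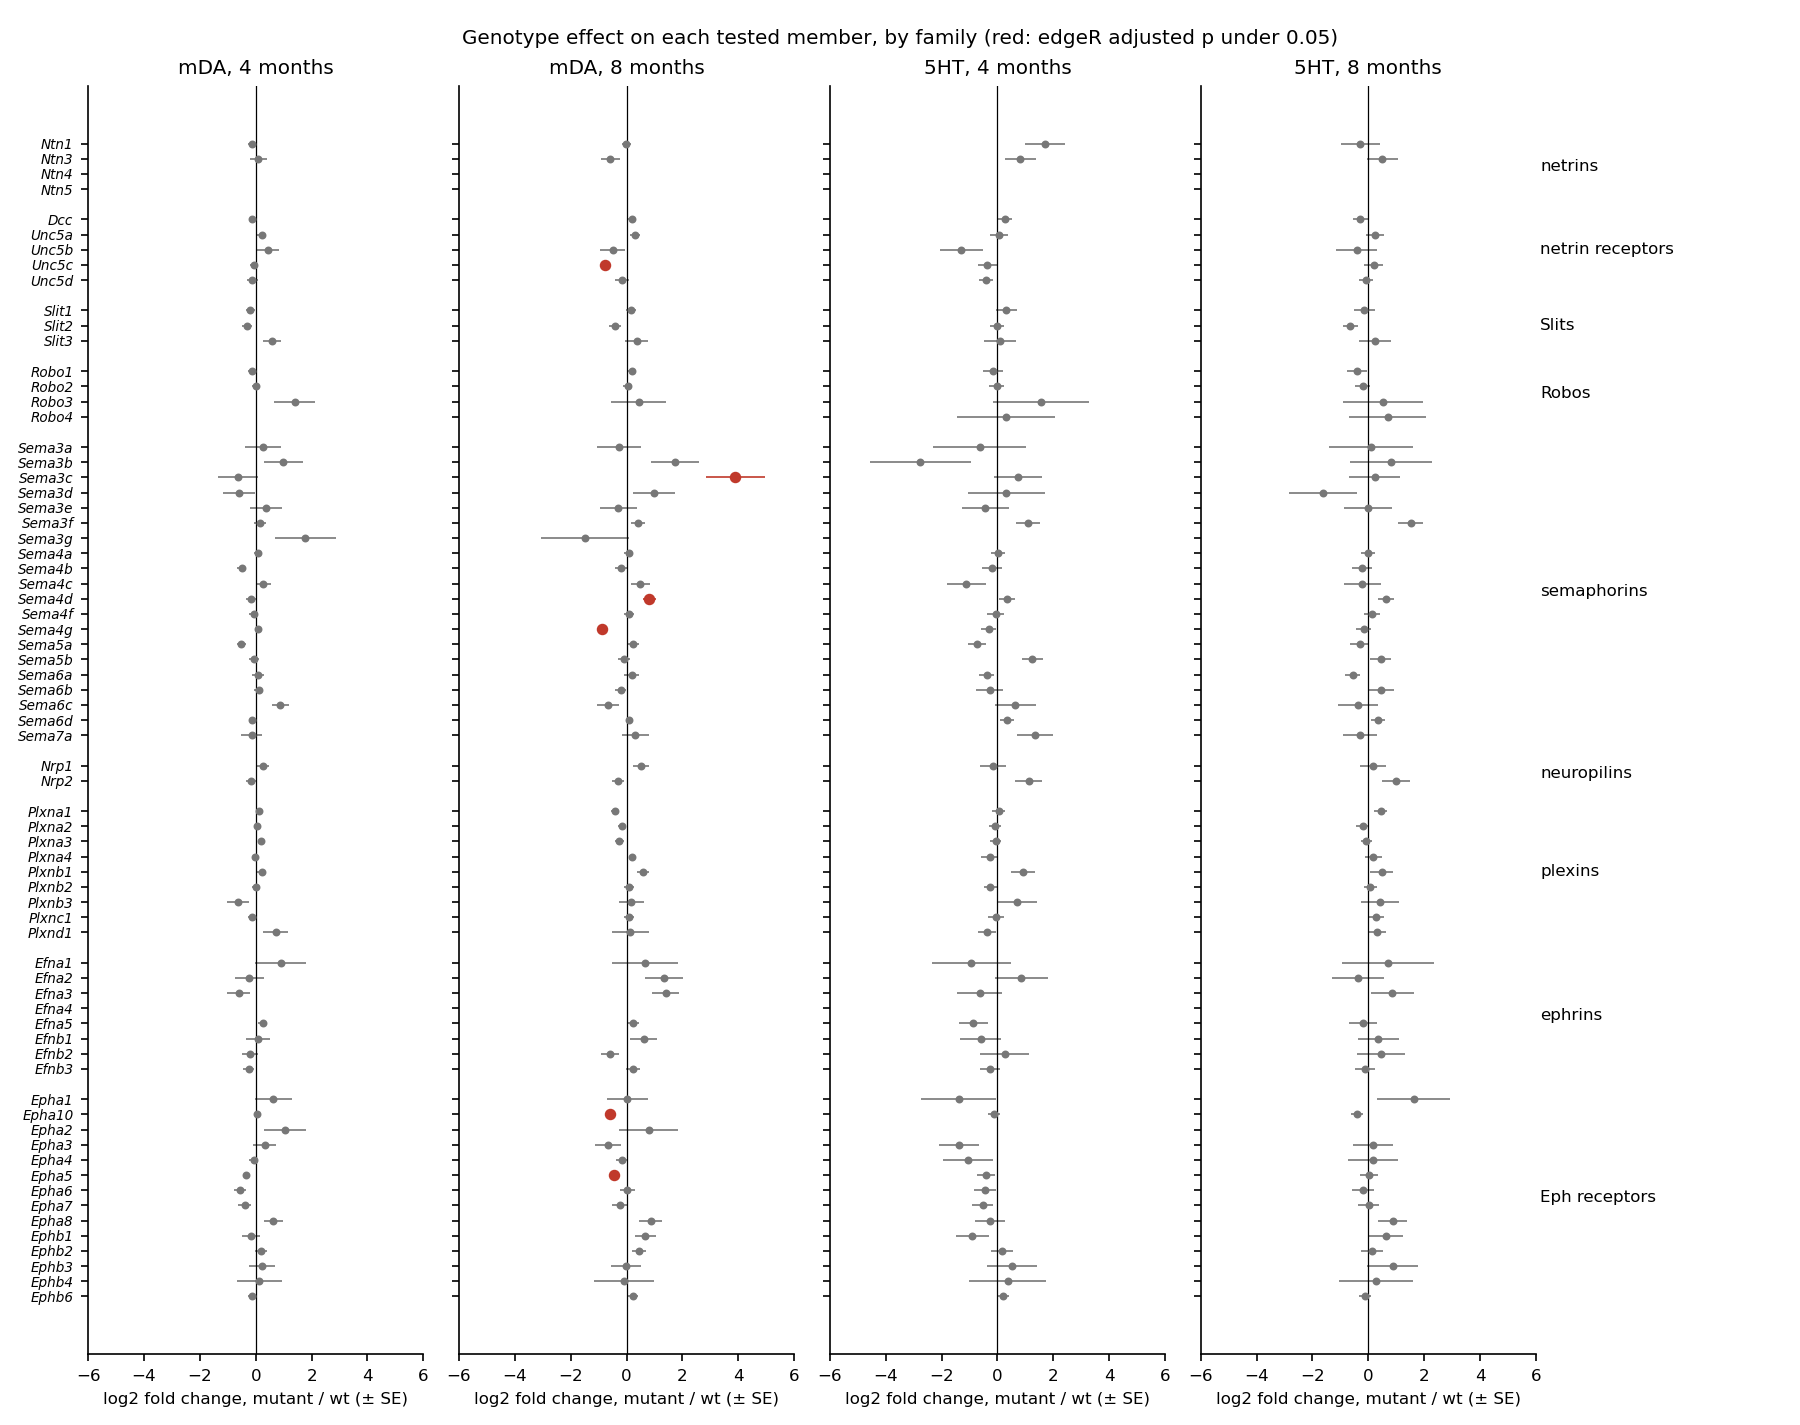
Log2 fold change of mutant over wt (x axes, with SE) for each tested member, ordered by family, in the 4 genotype comparisons. Red points passed an edgeR adjusted p under 0.05, which happened for 6 members in mDA neurons of 8 months and for 0 in the other 3 comparisons.

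In mDA neurons at 4 months 0 of 65 members were called by edgeR or by DESeq2, where 1.17% of all genes were called by edgeR. DESeq2 called 206 genes higher and 146 lower of 15425. At an unadjusted p under 0.05 there were 5 members, beside 2238 of all 15425 genes tested. Sema6c had a higher value and Epha5, Sema4b, Sema5a and Epha6 lower ones. Epha5 came closest. It lay at 174.7 to 248.04 CPM in wt (median 212) and 114 to 195 CPM in mutants (median 169), a log2 fold change of -0.36 (SE 0.10, edgeR adjusted p = 0.0732). It passed the threshold without the mutant C213 (-0.37, edgeR adjusted p = 0.0429) or D192 (-0.38, adjusted p = 0.0464), and Sema5a did without C213 (-0.70, adjusted p = 0.0172). The values of the 8-month calls at 4 months were 0.09 for Sema4g, -0.06 for Unc5c, 0.05 for Epha10, -0.64 for Sema3c and -0.15 for Sema4d.

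The sexes were set side by side among the 4-month mutants. For 9 of 65 members (13.8%) the 6 female and 4 male mutants did not overlap, against 17.5% of all genes tested. Sema4g was 239 to 317 CPM in females and 99.9 to 190 CPM in males, and Epha10 was 324 to 442.5 and 163 to 302 CPM. Plxna1, Sema4c, Sema6b, Sema6c and Unc5a were also higher in the females. Sema4d was 9.27 to 26.9 CPM in females and 30.2 to 55.0 CPM in males, and Epha6 was lower in females as well. In 4-month wt animals the sexes overlapped, with Sema4g at 156 to 273 CPM in 4 females and 121 to 209 CPM in 5 males, and Epha10 at 289 to 357 and 234 to 360 CPM. The members' share without overlap was below that of all genes and is no result about the members. Within set1, where all wt animals were male and all mutants female, 6 members were called by edgeR. Of all 13465 genes tested within set1, 674 were called higher and 828 lower, so the 6 calls show nothing particular to the members. Epha10 (0.56), Sema3g (3.83), Sema4g (0.77) and Sema6c (1.71) were higher there and Epha6 (-1.55) and Plxnc1 (-0.73) lower. Sex, library total and sequencing set moved together in these mutants, and their part in the values was not tested.

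**Figure D5:**
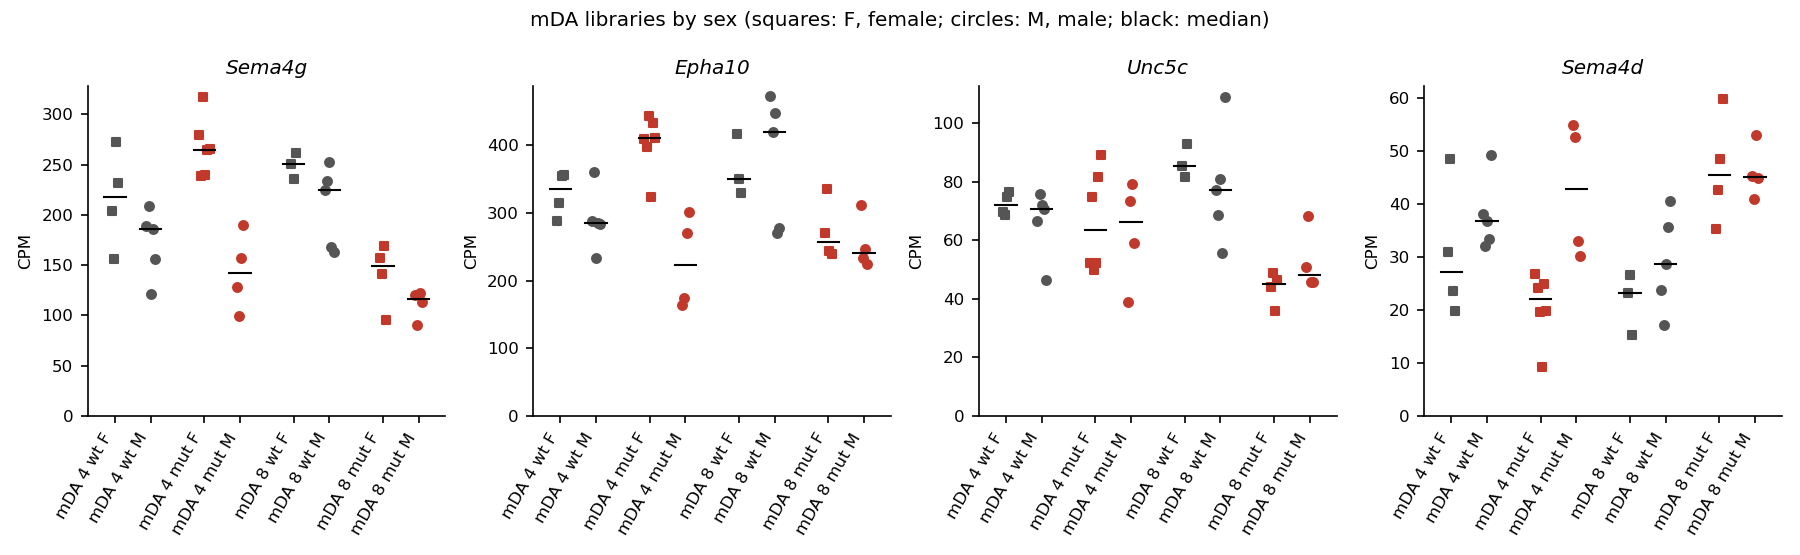
Level in CPM (y axes) of Sema4g, Epha10, Unc5c and Sema4d in mDA libraries by age, genotype and sex (squares female, circles male, black line the median). Among 4-month mutants the sexes do not overlap for Sema4g, Epha10 and Sema4d, while Unc5c overlaps, at 49.7 to 89.1 CPM in females and 39.0 to 79.2 CPM in males.

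The difference between the genotype effects at 8 and 4 months in mDA neurons asks whether an effect depends on age. It was called for 7 of 65 members, 3 with a more positive and 4 with a more negative effect at 8 months. Over all genes the shares were 3.76% and 2.35%. The positive differences were Sema3c (4.54, SE 1.26, edgeR adjusted p = 0.0236), Sema4d (0.97, SE 0.29, adjusted p = 0.0374) and Efna3 (2.01, SE 0.63, adjusted p = 0.046). Efna3 encodes an ephrin of the A class. The negative ones were Sema4g (-0.98, SE 0.20, adjusted p = 0.00253), Epha10 (-0.64, SE 0.20, adjusted p = 0.0405), Unc5c (-0.73, SE 0.23, adjusted p = 0.0458) and Plxna1 (-0.55, SE 0.18, adjusted p = 0.0495).

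Efna3 was 0 to 10.4 CPM in wt (median 6.44) and 8.89 to 18.3 CPM in mutants (median 15.3) at 8 months, and 4.92 to 18.5 CPM and 0.421 to 13.2 CPM at 4 months. Its 8-month effect alone was not called by edgeR (1.41, edgeR adjusted p = 0.0911). It was called by DESeq2 (1.40, DESeq2 adjusted p = 0.0244) and without a set term (1.44, edgeR adjusted p = 0.0409). Plxna1 was 166 to 311 CPM in wt and 127 to 251 CPM in mutants at 8 months, and 201 to 265.2 CPM and 148 to 336 CPM at 4 months. Both share exon sequence with an antisense gene model, 14.6% of exon length in Efna3 and 10.7% in Plxna1, and whether the counting used strand is not given in the sources used here.

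Without the 6 female mutants of 4 months 0 members were called in this difference. Sema4g then had -0.20, Unc5c -0.62, Plxna1 -0.11, Sema4d 0.11, Sema3c 4.10 and Efna3 0.79, and Epha10 changed sign to 0.195. In the same fit the 4-month effects themselves were -0.53 for Sema4g, -0.63 for Epha10, 0.52 for Sema4d and -0.15 for Unc5c, with 0 of these called. Without a term for sex 0 were called as well. Leaving out single libraries ended the call for Efna3 in 22, Plxna1 in 20, Unc5c in 18, Sema4d in 17 and Epha10 in 11 of 35 fits, and for Sema4g and Sema3c in 0. Without D161, D170 and D176 the call of Sema3c was lost (3.59, edgeR adjusted p = 0.0963).

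In 5HT neurons no member was called. At 4 months 0 of 64 were called, beside 0.0128% of all 15633 genes tested. An unadjusted p under 0.05 was found for 7 members and for 1001 of all genes. At 8 months the count was 0 of 64 beside 0.397% of all genes. An unadjusted p under 0.05 was then found for 3 members and for 766 of all genes. DESeq2 also called 0 members at either age, beside 40 genes higher and 8 lower at 4 months and 124 and 52 at 8 months. With 4 animals a group, the SE of Sema4g at 8 months was 0.27 here against 0.16 in mDA.

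Sema3f, a secreted repellent that signals through neuropilin-2, had the smallest p in 5HT neurons at 8 months. It was 12.7, 8.31, 11.004 and 9.62 CPM in the wt animals S381, S382, S383 and S385 and 27.9, 29.3, 26.7 and 29.5 CPM in the mutants S442, S443, S446 and S447. The groups did not overlap, but the log2 fold change of 1.51 (SE 0.43) was not called (edgeR adjusted p = 0.222). At 4 months its value was 1.08 (adjusted p = 0.712). Slit2 (-0.64) and Epha8 (0.87) were the other members without overlap at 8 months, so that 3 of 64 (4.69%) had none, against 6.5% of all genes tested.

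The members called in mDA were not called in 5HT neurons of 8 months. Sema4d was 82.8, 31.8, 46.5 and 52.5 CPM in wt and 75.2, 92.5, 96.8 and 72.0 CPM in mutants (log2 fold change 0.64, SE 0.29, edgeR adjusted p = 0.969). The wt animal S381 overlapped with the mutants and the other 3 wt animals lay below them. Sema4g (-0.16), Unc5c (0.19), Epha10 (-0.41), Epha5 (0.01) and Sema3c (0.24) were the others. In the same 5HT mutants 2 of 5 serotonergic markers and 2 of 5 tested dopaminergic markers were lower, and 1 of 3 GABA neuron markers was higher. The serotonergic sum was 5041 to 6527 CPM in wt and 1077 to 1347 CPM in mutants, and the GABA neuron sum 171 to 221 and 389 to 484 CPM, both without overlap. The markers' part in the members' values was not tested.

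The difference of the 8-month genotype effects in mDA and 5HT neurons was called for 0 of 67 members, beside 0.179% of 18386 genes. Members with an unadjusted p under 0.05 numbered 6, beside 1413 of all genes. The values of the 6 members were -0.82 for Plxna1, -1.26 for Nrp2, -0.96 for Unc5c, -0.70 for Sema4g, -1.06 for Sema3f and 3.76 for Sema3c. DESeq2 called 0 members, beside 33 genes higher and 68 lower. An effect particular to mDA neurons was thus not shown for any member. The difference between the ages of the 5HT genotype effect was called for 0 of 64 members, beside 0.0128% of all genes. At an unadjusted p under 0.05 there were 0 members, beside 620 of all genes. DESeq2 called 0 members, beside 15 genes higher and 13 lower.

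Age alone called no member. In wt mDA neurons 0 of 56 tested members differed between 8 and 4 months by edgeR or DESeq2. Of 13645 genes, edgeR called 0% and DESeq2 called 80 higher and 58 lower. An unadjusted p under 0.05 was found for 6 members and for 1518 of all genes. In wt 5HT neurons 0 of 64 differed, beside 0% of all genes. DESeq2 called 0 members, beside 11 genes higher and 4 lower. An unadjusted p under 0.05 was found for 2 members and for 964 of all genes. The 2 members were Ntn1 (log2 fold change 1.98, edgeR adjusted p = 0.765) and Dcc (0.67, adjusted p = 0.765). Ntn1 was 0.624 to 9.91 CPM at 4 months and 7.22 to 21.8 CPM at 8 months.

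Genes that act beside the members were examined as 2 lists, 44 intracellular effectors and 37 further guidance cues and receptors. In mDA neurons of 8 months 1 of 44 effectors was higher and 0 lower, beside 2.44% and 1.88% of all genes. This was Mical2, which encodes an actin-oxidising enzyme of the family that acts below plexins. It went from 68.8 ± 15.6 CPM (SD, n = 8) to 122 ± 16.5 CPM (SD, n = 8), a log2 fold change of 0.84 (edgeR adjusted p = 0.000272). In 5HT neurons of 8 months Mical2 went from 68.9 ± 9.66 CPM (SD, n = 4) to 112 ± 22.1 CPM (SD, n = 4) and was not called. Of 35 tested further cues and receptors, 3 were lower and 0 higher, beside the same shares. They were Neo1 (-0.53), encoding the Dcc relative neogenin, Ptprd (-0.71), a receptor phosphatase, and Celsr3 (-0.50), an atypical cadherin needed for axon tracts. At 4 months Srgap1 (0.63), encoding a protein that acts below Robos, was higher, and Dpysl2 (-0.55), encoding a semaphorin signalling protein, and Omg (-0.65), encoding a myelin inhibitor of axon growth, were lower, beside 1.17% of all genes called. The 10 oligodendrocyte markers summed to 433 to 1566 CPM in wt (median 1204) and 470 to 1218 CPM in mutants (median 558), with 1 called lower, and their part in the Omg value was not tested. Without the 6 female mutants, or without the mutants of set1, edgeR called 1 gene of the whole table lower at 4 months, so the calls of Dpysl2 and Omg cannot both have stood there. In 5HT neurons edgeR called 0 genes of either list at either age. At an unadjusted p under 0.05 there were 1 of 44 effectors and 4 of 36 further cues and receptors at 4 months, and 4 and 3 at 8 months. Of all 15633 genes, 1001 passed that level at 4 months and 766 at 8 months. Between the wt cell types 9 effectors were higher in mDA and 7 in 5HT, and 13 and 4 of 36 further cues and receptors, beside 11.3% and 10.4% of all genes. Ntng1 (2.87) and Neo1 (1.35) had the smallest p among the further cues and receptors.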

How the data were processed

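Expression was measured as read counts per gene in 51 Smart-seq2 libraries, 1 per animal, and the deposited table holds the authors' raw counts. The submitters' processing notes name STAR 2.7.0a and the builds mm10 and GRCm38. How reads were assigned to genes, and whether by strand, is not given in the sources used here. Columns were matched to the labels by animal number, with 0 unused columns and 0 identical pairs. A reporter row, at most 0.00294% of a library, was kept out of tests.

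Counts were tested with edgeR 4.0.16 in R 4.3.3 (TMM scaling, filterByExpr with a minimum count of 10, robust quasi-likelihood fit). Terms were group, sequencing set within age and sex in the 35 mDA libraries, group and sex in the 16 5HT libraries, and group and sex in the 25 wt libraries. All 51 libraries were fitted with group, mDA sequencing set within age, and sex. The wt ages of mDA were fitted with the set label shared over ages. SE is the absolute log2 fold change over the square root of F. CPM per kb used exon lengths of GENCODE M21, which gave coordinates too. The tests were also run on counts simulated without effects of set, sex or other cell types. That run says nothing about such effects in these libraries. Smart-seq2 reads have no molecular tags, so the floor of 3 counts covers counting error only.

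Members and lists were chosen with earlier results of these data known. Members named are those called in genotype tests, the 8 highest per kb, the 8 per side with the smallest p between wt cell types, and a list of 22 genes known for these axons. Up to 4 called genes were named per pathway list. Alternatives were RLE scaling, no filter, DESeq2 1.42.0, no sex or set term, single sets, leaving out the set1 mutants, leaving out each animal, and, chosen after seeing the data, leaving out D161, D170 and D176 or the 6 female mutants of 4 months.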

Additional observations from a re-analysis of the deposited data

Results flagged for a closer look

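The difference of the mDA genotype effects at 8 and 4 months passed the edgeR threshold for 7 members, with values of 4.54 for Sema3c, 0.97 for Sema4d, 2.01 for Efna3, -0.98 for Sema4g, -0.64 for Epha10, -0.73 for Unc5c and -0.55 for Plxna1. In the 8 groups, 14 genes were examined for a single animal whose gap to the nearest other, as a share of the group's range, passed Dixon's critical value, and 7 of 112 groups held one. At the level used, chance flags about 1 in 20 groups.

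In mDA neurons the wt animal C250 of 8 months had the highest Sema3c level of its group (4.92 CPM, others up to 1.46). D107 of the same group had the highest Robo4 level (3.13 CPM, others up to 1.13). The wt animal D878 of 4 months had the lowest Unc5c level (46.3 CPM, others 66.7 to 76.5), and D296 the highest Efna3 level (18.5 CPM, others up to 10.99). The mutant D161 of 8 months had the highest Unc5c level (68.2 CPM, others up to 50.7). In 5HT neurons the 8-month mutant S442 had the highest Epha10 level (156 CPM, others up to 111), and the 4-month mutant S427 the highest Sema3f level (53.6 CPM, others up to 22.4).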

How the results depend on the processing

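No paired analysis was possible because the labels give each animal its own number and no pairing. Of 325 recomputed counts of called members, all but 49 stayed within 1.5 times the reported count. Counts of 0 that stayed 0 are included in the unchanged ones. Without single animals, 14 of 35 higher and 15 of 35 lower counts of the mDA age difference moved further. Between wt cell types 0 of 25 did in either direction. For mDA mutants against wt at 8 months, the 2 higher members became 1 without a sex term, 0 in set1 alone, 0 in set2 alone (2 wt and 4 mutants) and 1 without D161, D170 and D176, and the 4 lower members became 0 in set2 alone. The counts ranged over 0 to 2 higher and 2 to 5 lower when single animals were left out. At 4 months 6 members were called in set1 alone, beside 674 genes higher and 828 lower of 13465. The member count was 0 to 2 without single animals. For the difference between the ages in mDA, the 3 higher members became 0 without a sex term or without the 6 female mutants of 4 months, and 1 to 4 without single animals. The 4 lower members became 1 with no filter on low counts, 2 without a set term, 0 without a sex term and 0 without the 6 females, and 1 to 5 without single animals. Of the called values, Epha10 in this difference alone changed sign, to 0.195 without the 6 females. Of values not called, the 4-month effects changed sign there for Sema4g (0.09 to -0.53), Sema4d (-0.15 to 0.52), Plxna1 (0.14 to -0.23), Efna3 (-0.61 to 0.35) and Epha10 (0.05 to -0.63). Without single animals, the counts between wt cell types were 20 to 23 higher and 8 to 10 lower, and those of the 5HT, cell-type-difference and wt age comparisons were 0 to 0. Of 1307 recomputed values of named genes, 143 kept their sign but lost the call. The wt cell type comparison gave 870 of the 1307 values, and 861 of these kept the call. Most of the lost calls were thus in the mDA genotype comparisons. The cause was not tested. Depth limits Sema3c, Sema3g and Robo4, whose levels in some libraries were under the floor of 3 counts. In set2 alone the values at 8 months were -0.61 for Sema4g, -0.63 for Unc5c, -0.23 for Epha10, -0.28 for Epha5, 0.27 for Sema4d and 5.37 for Sema3c, the last with an edgeR adjusted p of 0.0591. Without D161, D170 and D176, Plxna1 (-0.52) and Sema3g were also called as lower, the latter at 0 CPM in the 5 remaining mutants.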
